A study of Mus musculus with 12 samples.

Results

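The methionine cycle and betaine metabolism of the liver are described here through 10 genes: Mat1a, Gnmt, Ahcy, Cbs, Cth, Chdh, Bhmt, Bhmt2, Dmgdh and Sardh. They were taken by name, as enzymes of the cycle and its side branches, from the 24062 genes listed. The list was chosen with earlier results of these libraries known, so its counts beside all genes are a description and no independent support. All 10 passed the filter on low counts that left 12015 genes for testing. Liver RNA was sequenced as 12 libraries from male mice aged 14 weeks on a mixed 129SvEV-C57BL/6 background, and all of them carried floxed alleles of Nr5a2, the gene of the nuclear receptor LRH-1. Knockouts had received Cre recombinase by an AAV8 virus vector, and controls were floxed mice without Cre that had been given AAV8-eGFP. There were 3 knockout and 3 control libraries on a standard diet (SD), and 2 knockout and 4 control libraries on a high-fat diet (HFD, D12492) fed for 6 weeks. The sources used here name neither the promoter that drove Cre, nor the exons it removes, nor the share of hepatocytes it reached. Since the RNA came from whole liver, fewer cells of a type and less RNA per cell cannot be told apart. Whether each library is a mouse of its own is not put into words in the labels, and the p-values then speak of the spread among libraries only.

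The methionine cycle makes S-adenosylmethionine (SAM), the methyl donor of the cell, from methionine. Methyltransferases turn SAM into S-adenosylhomocysteine, which is split into adenosine and homocysteine. Homocysteine is either methylated back to methionine, with betaine or a folate as the donor, or passed through cystathionine to cysteine. Betaine is made from choline, and its methyl groups are removed one after the other, so that betaine becomes dimethylglycine, then sarcosine, then glycine. The liver carries most of this flux in mammals, and phosphatidylcholine synthesis by methylation is one of its large uses of SAM.

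The HFD libraries, with 7463792 to 10875478 counts in all, were deeper than the SD libraries, with 2371167 to 3404570. The labels used here name no sequencing cohort. If the diets were sequenced apart, diet and cohort cannot be told apart. Levels are given as CPM, the count of a gene scaled to a common library size. The targeted gene, Nr5a2, had 95.3, 100.1 and 94.7 CPM in the SD libraries labelled knockout, against 84.4, 74.8 and 85.8 CPM in SD controls, and 69.1 and 84.5 CPM in the HFD libraries labelled knockout, against 77.0, 74.5, 64.3 and 66.8 CPM in HFD controls. Its count over the whole gene was thus not lower in the libraries labelled knockout, and a count that includes the exons left in place is no check of the deletion. Markers of hepatocytes were present in every library, at summed levels that overlapped on SD and were 123090 to 169160 CPM in HFD knockouts, against 103880 to 109080 CPM in HFD controls. The most abundant markers weigh most in these sums. Taken gene by gene on HFD, the 7 hepatocyte markers tested had a median log2 fold change of -0.21. Of these, 2 had both knockouts above all controls, none had both below, and only Ttr passed, as higher. The summed level of 7 stellate cell markers was 439 to 513 CPM in SD knockouts and 332 to 393 CPM in SD controls. That of 6 cholangiocyte markers was 65.0 to 198 CPM in SD knockouts and 50.6 to 53.9 CPM in SD controls. On HFD both sums overlapped. None of the 7 stellate markers, nor of the 3 cholangiocyte markers tested, passed on either diet. Averaged over the diets, 3 stellate markers (Col1a2, Col3a1 and Reln) passed as higher. The summed level of 9 pericentral hepatocyte markers was 8994 to 11565 CPM in SD knockouts and 12519 to 14077 CPM in SD controls. Of these markers, 3 (Oat, Tbx3 and Slc1a2) passed the test as lower on SD. Of 8 periportal markers, 4 were lower and 1 was higher on SD, and the summed level of the list overlapped, as did those of the Kupffer cell and endothelial lists. On HFD, 4 pericentral and 2 periportal markers were lower, and Ttr and Cyp2f2 were higher. Rhbg, a pericentral marker, had no count in either HFD knockout, and Cldn7, a cholangiocyte marker, had none in SD controls. The part of these marker levels in the differences below was not tested. Among HFD controls, library 1 lay at -3.34 on the second principal component, the other 3 lay at 11.8 to 18.8, and the HFD knockouts lay at -24.4 and -20.6.

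In knockouts on SD, 4 of the 10 genes fell and none rose. These were Cth (2.79-fold lower than in controls), Gnmt (2.40-fold), Mat1a (2.34-fold) and Sardh (1.99-fold). The call is an adjusted p under 0.05 in the quasi-likelihood test of edgeR, which 2.94% of all genes tested met as lower and 1.44% as higher on SD. On HFD, 3 of the 10 fell (Gnmt, Cth and Mat1a) and none rose, against 1.66% of all genes that passed as lower and 1.04% as higher. The median log2 fold change of the 10 genes was -0.51 on SD and -0.35 on HFD, while the median over all genes tested was 0 on SD and -0.0074 on HFD. On SD the count of 4 was the same whichever library was left out. On HFD the count was 4 without HFD control 1 and fell to 1, Gnmt alone, without HFD control 2, HFD control 4 or either HFD knockout library.

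**Figure D1:**
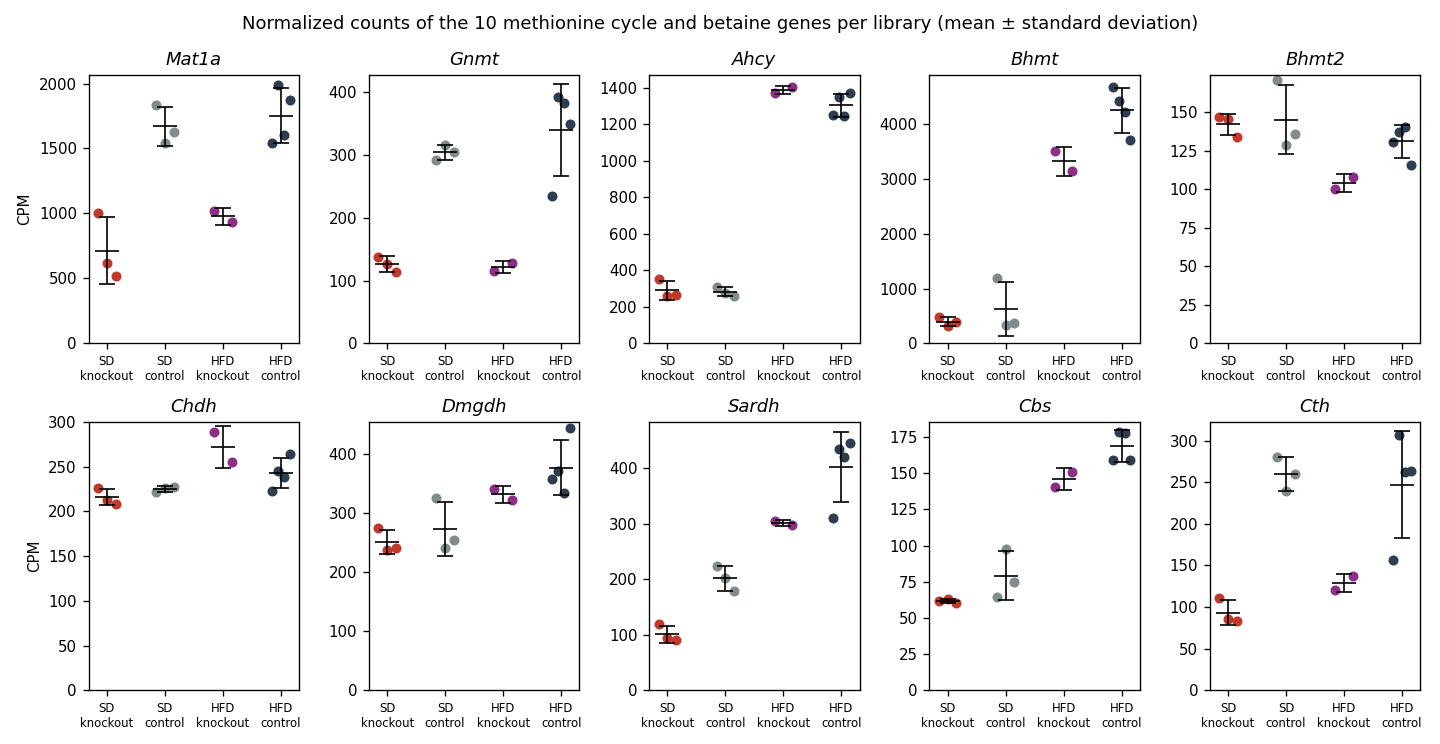
CPM (linear axis from 0) of each of the 10 genes in each of the 12 libraries, with 1 point per library and a mark at the group mean with its standard deviation; knockouts stand left of controls within each diet. Gnmt, Mat1a, Cth, Sardh and Cbs have all knockout points below all control points of the same diet, by a small gap for Cbs. Ahcy, Bhmt and Cbs differ mainly between diets, and Sardh differs between diets too.

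Mat1a encodes the liver form of methionine adenosyltransferase, which makes SAM. Its level was 1003, 621 and 518 CPM in SD knockouts, against 1837, 1541 and 1630 CPM in SD controls. On HFD it was 1021 and 933 CPM in knockouts, against 1543, 1990.4, 1607 and 1873 CPM in controls. Every knockout library lay below every control library on both diets, and SD knockout 1 was the highest of the SD knockouts. In log2 terms the fold change was -1.22 (SE 0.19, edgeR adjusted p = 0.00178) on SD and -0.84 (SE 0.21, edgeR adjusted p = 0.0403) on HFD. With any HFD library left out, the log2 fold change on HFD stayed between -0.90 and -0.77, but the call was mostly lost. With HFD control 2, 3 or 4 left out, the adjusted p in edgeR was 0.106, 0.0589 and 0.102 in that order, while leaving out the first or second HFD knockout gave 0.227 and 0.202. The adjusted p was also 0.0585 with every library thinned to the size of the smallest one.

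Gnmt encodes glycine N-methyltransferase, which uses SAM to make sarcosine from glycine and so takes up surplus SAM in the liver. It had 138, 127 and 114 CPM in SD knockouts, against 292, 317 and 305 CPM in SD controls. On HFD it had 115 and 129 CPM in knockouts, against 234, 393, 384 and 349.5 CPM in controls. The 5 knockout libraries lay within a narrow band on both diets, below all 7 controls, and HFD control 1 was the lowest control. The log2 fold change was -1.27 (SE 0.16, edgeR adjusted p = 0.00044) on SD and -1.48 (SE 0.18, edgeR adjusted p = 0.000314) on HFD. Gnmt was the one gene of the 10 that passed on HFD under every alternative and with every library left out. Its promoter is shown because Gnmt had the lowest p of the 10 genes on both diets. The window is the 250 bases before and 50 bases after the start in the RefSeq annotation, build GRCm38.p6, at chr17:46729116-46729415 on the minus strand, read 5′ to 3′, with the 50 bases from the start at the right end.

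Gnmt: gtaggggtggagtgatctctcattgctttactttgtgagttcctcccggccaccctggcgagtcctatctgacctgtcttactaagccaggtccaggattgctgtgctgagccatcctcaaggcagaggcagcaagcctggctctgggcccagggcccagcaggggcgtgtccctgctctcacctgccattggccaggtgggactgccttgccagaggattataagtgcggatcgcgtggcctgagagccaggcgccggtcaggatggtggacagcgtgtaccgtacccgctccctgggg

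The core to which LRH-1 is known to bind, searched as CAAGGNC on both strands, was found in 17.8% of all 32851 windows of this length, and the longer CAAGGTCA, which overlaps it, in 1.56%. The Gnmt window holds neither, which says only that these letters are not in these 300 bases. RefSeq windows were at hand for 8 of the 10 genes, not for Mat1a and Cth.

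Ahcy encodes S-adenosylhomocysteine hydrolase, which splits S-adenosylhomocysteine. It had 352, 260.2 and 264 CPM in SD knockouts, against 309, 276 and 261 CPM in SD controls, and the ranges overlapped. On HFD the level was 1373 and 1406 CPM in knockouts, against 1250.3, 1349, 1245 and 1369 CPM in controls. Both HFD knockouts were above all 4 controls, by a small margin that did not pass the test. Its log2 fold change was 0.05 (SE 0.12, edgeR adjusted p = 0.890) on SD and 0.09 (SE 0.13) on HFD, and neither passed.

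Homocysteine leaves the cycle through cystathionine beta-synthase, encoded by Cbs, and cystathionine gamma-lyase, encoded by Cth, which releases cysteine. Cth had 111, 85.3 and 83.6 CPM in SD knockouts, against 281, 239.9 and 259.7 CPM in SD controls, the largest fold change among the 10 genes on SD. Its HFD level was 121 and 137 CPM in knockouts, against 156, 307, 262 and 264 CPM in controls. The ranges did not overlap on either diet, and HFD control 1 lay close to the HFD knockouts. The fold change on the log2 scale was -1.48 (SE 0.20, edgeR adjusted p = 0.000621) on SD and -0.94 (SE 0.21, edgeR adjusted p = 0.0216) on HFD. Without HFD control 1 the HFD value was -1.10 (edgeR adjusted p = 0.000294). With any HFD library left out it stayed between -1.10 and -0.81. The HFD call was lost with only the HFD groups in the fit (edgeR adjusted p = 0.103), and without HFD control 2 (0.0578), HFD control 4 (0.0560), HFD knockout 1 (0.255) or HFD knockout 2 (0.0867).

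Cbs, the step before Cth, had 61.7, 62.8 and 60.6 CPM in SD knockouts, against 64.4, 97.7 and 75.1 CPM in SD controls. On HFD it had 141 and 151 CPM in knockouts, against 159, 179, 178 and 159 CPM in controls. The knockouts were below all controls on both diets, with gaps that were small beside the spread among controls. Neither difference passed the test, at a log2 fold change of -0.36 (SE 0.13, edgeR adjusted p = 0.169) on SD and -0.21 (SE 0.13, edgeR adjusted p = 0.528) on HFD.

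The betaine branch begins with Chdh, choline dehydrogenase, which oxidizes choline in the mitochondrion. Chdh had 226, 213 and 209 CPM in SD knockouts, against 222, 227 and 228 CPM in SD controls, and the ranges overlapped. On HFD the level was 289 and 255 CPM in knockouts, against 223, 245, 239 and 264 CPM in controls, which also overlapped. In log2 terms the fold change was -0.06 (SE 0.10, edgeR adjusted p = 0.821) on SD and 0.17 (SE 0.10, edgeR adjusted p = 0.516) on HFD.

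Bhmt encodes betaine-homocysteine methyltransferase, which passes a methyl group from betaine to homocysteine, and Bhmt2 encodes a relative that uses S-methylmethionine as the donor. Bhmt had 482, 318 and 389 CPM in SD knockouts, against 1195, 328 and 371 CPM in SD controls. SD control 1 stood far above the other SD controls, and without it the log2 fold change on SD turned from -0.67 (SE 0.35, edgeR adjusted p = 0.349) to 0.19. On HFD, Bhmt had 3504 and 3140.4 CPM in knockouts, against 4678, 4432, 4222 and 3711 CPM in controls, with no overlap and a log2 fold change of -0.36 (SE 0.37, edgeR adjusted p = 0.746). Its promoter window, chr13:93637709-93638008 on the minus strand, is shown because it is one of the few windows of these genes that hold the core. Capitals mark CAAGGTC, at bases 177 to 183, which begins 74 bases before the start and is followed by an A, so that the longer CAAGGTCA is present too.

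Bhmt: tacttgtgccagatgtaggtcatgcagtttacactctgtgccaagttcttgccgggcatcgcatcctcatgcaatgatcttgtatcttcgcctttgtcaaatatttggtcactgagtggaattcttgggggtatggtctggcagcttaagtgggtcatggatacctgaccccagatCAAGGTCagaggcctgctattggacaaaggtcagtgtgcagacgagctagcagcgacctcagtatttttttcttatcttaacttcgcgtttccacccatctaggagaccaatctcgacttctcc

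Of the 10 genes, Chdh held the core in 1 of its 3 windows, as CAAGGCC, and the windows of Ahcy, Bhmt2, Cbs, Dmgdh and Sardh held none. The match in Bhmt is a description of the sequence, in a gene whose level did not pass the test between knockouts and controls on either diet.

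Bhmt2 had 147, 145 and 134 CPM in SD knockouts, against 171, 129 and 136 CPM in SD controls, and on HFD 99.9 and 108 CPM in knockouts, against 130.4, 137, 140.3 and 116 CPM in controls. The ranges overlapped on SD, and on HFD both knockouts lay below all 4 controls. The log2 fold change was -0.03 (SE 0.12, edgeR adjusted p = 0.945) on SD and -0.33 (SE 0.12, edgeR adjusted p = 0.204) on HFD. Dmgdh, which encodes the mitochondrial dehydrogenase that turns dimethylglycine into sarcosine, had 276, 238 and 241 CPM in SD knockouts, against 325, 241 and 255 CPM in SD controls. Its HFD level was 342 and 322 CPM in knockouts, against 358, 372, 335 and 445 CPM in controls. The ranges overlapped on both diets, at a log2 fold change of -0.12 (SE 0.13, edgeR adjusted p = 0.715) on SD and -0.19 (SE 0.14, edgeR adjusted p = 0.624) on HFD.

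Bhmt2 and Dmgdh are neighbours that point away from each other, with starts 134 bases apart at positions 93674302 and 93674436 of chromosome 13 (GRCm38.p6), and their promoter windows share 233 bases. The window of Dmgdh, chr13:93674186-93674485 on the plus strand, is shown with the stretch between the starts in capitals, because both windows hold it.

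Dmgdh: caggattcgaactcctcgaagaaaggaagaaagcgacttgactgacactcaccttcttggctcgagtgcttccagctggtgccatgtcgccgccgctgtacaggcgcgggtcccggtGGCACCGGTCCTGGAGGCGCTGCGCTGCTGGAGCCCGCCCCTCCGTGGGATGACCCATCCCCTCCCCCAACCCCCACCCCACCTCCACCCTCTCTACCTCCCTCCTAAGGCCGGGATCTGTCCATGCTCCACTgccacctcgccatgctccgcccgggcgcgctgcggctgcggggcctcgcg

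With the diet mean taken out, log2 CPM of Bhmt2 and Dmgdh had a Pearson correlation of 0.43 over the 12 libraries, below the 0.71 of Bhmt with Dmgdh, whose starts do not lie side by side. Both values include SD control 1, the highest SD library for Bhmt (1195 CPM), Bhmt2 (171 CPM) and Dmgdh (325 CPM). The part of that library in them was not tested.

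Sardh encodes sarcosine dehydrogenase, the enzyme that turns the sarcosine made by Gnmt, or from dimethylglycine, back into glycine. It had 119, 93.3 and 90.9 CPM in SD knockouts, against 223, 202 and 179 CPM in SD controls. On HFD it had 305 and 297 CPM in knockouts, against 309.5, 434, 419 and 445 CPM in controls. On SD the knockouts were well below the controls, and on HFD the gap was narrow because HFD control 1 lay just above the knockouts. Its log2 fold change was -0.995 (SE 0.15, edgeR adjusted p = 0.00127) on SD and -0.42 (SE 0.15, edgeR adjusted p = 0.198) on HFD. Without HFD control 1 it was -0.52 on HFD and passed (edgeR adjusted p = 0.0290). Its promoter, chr2:27247254-27247553 on the minus strand, is shown beside that of Gnmt because these genes make and remove sarcosine and both fell on SD.

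Sardh: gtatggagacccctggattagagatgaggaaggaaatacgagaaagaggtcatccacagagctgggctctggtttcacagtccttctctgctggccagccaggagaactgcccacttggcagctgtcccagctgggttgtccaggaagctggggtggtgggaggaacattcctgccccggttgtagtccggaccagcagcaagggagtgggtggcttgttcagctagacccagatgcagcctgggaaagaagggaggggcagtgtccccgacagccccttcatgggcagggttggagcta

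**Figure D2:**
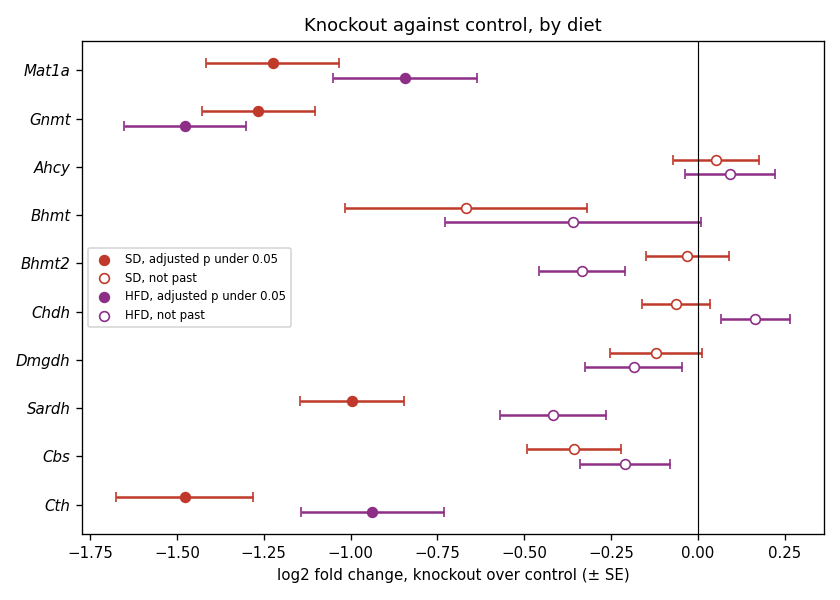
Log2 fold change of knockouts over controls on SD and on HFD for the 10 genes, with bars of 1 SE; filled points passed the edgeR test at an adjusted p under 0.05. Cth, Gnmt, Mat1a and Sardh lie at -0.995 or below on SD, and Gnmt, at -1.48, lies lowest on HFD.

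Counted without a test, 5 of the 10 genes had all SD knockouts below all SD controls, and 12.3% of all genes tested did so. On HFD, 7 of the 10 had both knockouts below all 4 controls, against 11.9% of all genes tested, and Ahcy had both above, against 10.3%. The 10 genes together had summed levels of 2915, 2164 and 2105 CPM in SD knockouts, against 4919, 3598 and 3698 CPM in SD controls. On HFD the sums were 7311 and 6878 CPM in knockouts, against 9042, 9838, 9030.0 and 8997 CPM in controls. The sums did not overlap on either diet, and the most abundant genes weigh most in them. Mean Mat1a was 714 CPM in SD knockouts and 1669 CPM in SD controls. Mean Bhmt, which did not pass the test, was 3322 CPM in HFD knockouts and 4261 CPM in HFD controls.

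With the knockout effect averaged over both diets, which uses the same libraries again, 4 genes fell (Cth, Gnmt, Mat1a and Sardh) and none rose, against 5.36% of all genes tested that passed as lower and 3.00% as higher. The fold change on the log2 scale was -1.37 for Gnmt (SE 0.12, edgeR adjusted p = 4.49e-06), -1.21 for Cth (SE 0.14, edgeR adjusted p = 8.40e-05), -1.03 for Mat1a (SE 0.14, edgeR adjusted p = 0.000281) and -0.71 for Sardh (SE 0.11, edgeR adjusted p = 0.000627). Cbs was at -0.28 (edgeR adjusted p = 0.0796) and passed only without SD control 1 (0.0256). Gnmt thus had the largest fold change of the 10 in this average and on HFD, and Cth on SD.

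Whether the knockout effect differed between the diets was tested as an interaction, and none of the 10 genes passed. In edgeR 0 of the 12015 genes did (0.00%), 911 had an unadjusted p under 0.05, and DESeq2 called 14 as lower and 19 as higher among 5280 genes with an adjusted p. Without the filter on low counts edgeR called 8 as lower and 9 as higher. The difference of the log2 fold changes, HFD minus SD, ran from -0.30 for Bhmt2 to 0.58 for Sardh (SE 0.21, unadjusted p = 0.0145, edgeR adjusted p = 0.561). It was 0.54 for Cth (edgeR adjusted p = 0.706), 0.38 for Mat1a (0.816) and -0.21 for Gnmt (0.894). Sardh passing on SD and not on HFD is therefore not a shown difference between the diets.

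Between the diets, Bhmt and Ahcy showed the largest fold changes of the 10 genes. In controls, 5 of the 10 genes were higher on HFD (Bhmt, Ahcy, Cbs, Sardh and Dmgdh) and none was lower, against 16.5% of all genes tested that were higher and 13.6% that were lower. In knockouts, 5 were higher (Bhmt, Ahcy, Sardh, Cbs and Chdh), against 14.9%, and Bhmt2 was lower, against 11.7%. Gnmt, Mat1a and Cth passed in neither comparison with all libraries in the main fit. Without HFD control 1, Gnmt passed as higher on HFD in controls, at a log2 fold change of 0.30 (edgeR adjusted p = 0.0324). These 2 comparisons use the same libraries as the knockout comparisons, and a sequencing cohort, if there was one, cannot be told apart from the diet.

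The log2 fold change of HFD over SD in controls was 2.76 for Bhmt (SE 0.36, edgeR adjusted p = 2.78e-05) and 2.21 for Ahcy (SE 0.12, edgeR adjusted p = 1.57e-09). It was 1.09 for Cbs (edgeR adjusted p = 5.71e-06), 1.00 for Sardh (5.19e-05) and 0.47 for Dmgdh (0.00986, and 0.0506 without SD control 2). In knockouts it was 3.07 for Bhmt (SE 0.39, edgeR adjusted p = 3.11e-05), 2.25 for Ahcy (5.13e-09), 1.58 for Sardh (2.57e-06), 1.24 for Cbs (8.41e-06), 0.33 for Chdh (0.0311) and -0.45 for Bhmt2 (0.0189). In knockouts some of these calls were fragile. That of Bhmt2 was lost with thinned libraries (edgeR adjusted p = 0.0612) and without SD knockout 1 or 2 or either HFD knockout (0.0510 to 0.146). That of Chdh was lost with thinned libraries (edgeR adjusted p = 0.106) and without SD knockout 2, SD knockout 3 or HFD knockout 1 (0.0845 to 0.194). Cth, at 0.47 (edgeR adjusted p = 0.123), passed with no filter (0.0432), with only the groups compared (0.0354) and with thinned libraries (0.0418). Mat1a, at 0.45 (edgeR adjusted p = 0.128), passed with no filter (0.0464) and, at 0.80, without SD knockout 1 (0.00173). Dmgdh, at 0.40 (edgeR adjusted p = 0.0539), passed with no filter (0.0286), with only the groups compared (0.0276) and without SD knockout 1 (0.0397). Without SD control 1, the high SD library, Bhmt was at 3.62 in controls.

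Bhmt and Ahcy are also the only members of the 10 with near-identical copies among annotated mouse pseudogenes, by alignment over at least 200 bases at 90% identity. For Ahcy, 51.1% of the transcript is covered by 2 pseudogenes, the longest match being 1299 bases at 99.2% in Gm9826, and Gm4737 matches 2086 bases at 99.7%. For Bhmt, 49.2% is covered by Bhmt-ps1, which matches 1224 bases at 98.9%, and an annotated gene elsewhere matches 1869 bases at 99.4%. The levels of both genes are uncertain, since the counting of reads that match several places is described nowhere in the sources at hand. Among all genes, those with a copy over at least 40% of the transcript, a limit set after the data were seen, had a median log2 fold change of HFD over SD of 0.64 in controls (586 genes), and 50.7% of them were higher on HFD. Genes with no copy had a median of -0.02 (9458 genes), and 11.9% of them were higher. In knockouts the medians were 0.68 with such a copy and -0.01 with none. Ribosomal protein genes, which have many such copies, took 0.683% to 0.807% of counts in HFD libraries and 0.137% to 0.183% in SD libraries. The part of these copies in the levels of Ahcy and Bhmt was not tested. Cbs, Sardh and Dmgdh, also higher on HFD in controls, have no such copy. Between knockouts and controls the median of genes with such a copy was -0.03 on SD and -0.04 on HFD. Strand use in counting is not given either, and Chdh shares exon sequence with Cacna1d, and Dmgdh with AW495222, on the opposite strand.

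**Figure D3:**
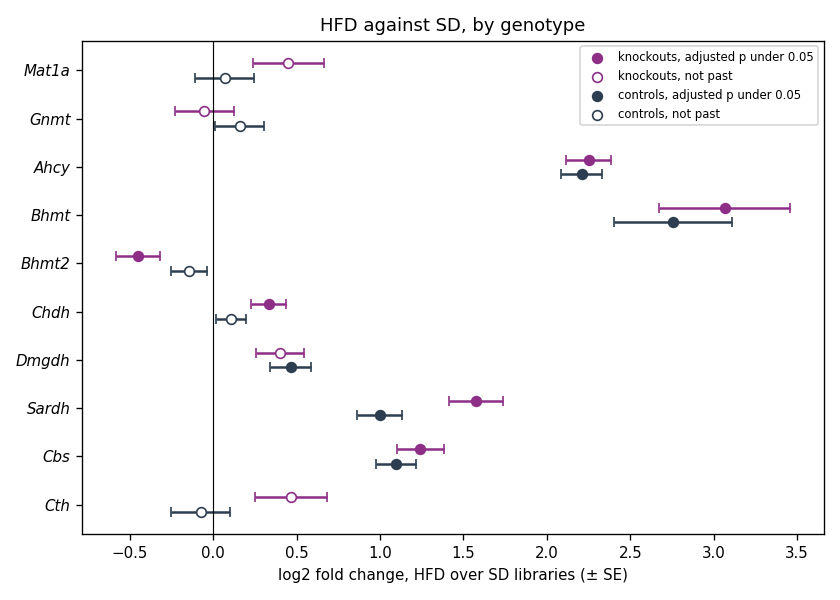
Log2 fold change of HFD over SD for the 10 genes in knockouts and in controls, with bars of 1 SE; filled points passed the edgeR test at an adjusted p under 0.05. Bhmt and Ahcy lie above 2 in both genotypes, while Gnmt, Mat1a and Cth lie below 0.5 and did not pass in either.

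Per kilobase of the longest annotated transcript, the order of the 10 genes differed between the groups. In SD knockouts the mean levels led with Mat1a at 206 CPM per kb, Bhmt at 159, Gnmt at 122 and Ahcy at 115, and each of these overlapped its neighbour. In SD controls Mat1a led at 481 CPM per kb, above Gnmt at 294 with no overlap, followed by Bhmt at 253 and Cth at 143, which overlapped their neighbours. The Bhmt mean rested on SD control 1, and without it was 140.2 CPM per kb, close to that of Cth. In HFD knockouts Bhmt led at 1334 CPM per kb, followed by Ahcy at 546, Mat1a at 282 and Gnmt at 118, with no overlap between them. In HFD controls Bhmt was at 1711 CPM per kb, Ahcy at 513, Mat1a, which overlapped Ahcy, at 506, and Gnmt at 329. Cbs was lowest in all 4 groups by this measure, at 9.91 CPM per kb in SD knockouts, 12.7 in SD controls, 23.4 in HFD knockouts and 27.1 in HFD controls. The transcript used for Cbs, of 6226 bases, was the longest of the 10. In CPM without this scaling, Cbs was lowest on SD only. It had a mean of 146 CPM in HFD knockouts, above Cth, Gnmt and Bhmt2 at 129, 122 and 104 CPM. In HFD controls Cbs had 169 CPM, above Bhmt2 at 131 CPM. Cth stood in the seventh place in SD knockouts and the fourth in SD controls, and in the sixth in HFD knockouts and the fifth in HFD controls.

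Among themselves, the genes that fell on SD had high correlations, which genes picked for a fall in knockouts would have in any case. With the diet mean taken out, the Pearson correlation of log2 CPM over the 12 libraries was 0.97 for Cth with Sardh, 0.95 for Mat1a with Cth, 0.94 for Gnmt with Cth, 0.94 for Mat1a with Sardh, 0.90 for Gnmt with Mat1a and 0.87 for Gnmt with Sardh. These values include the difference between genotypes, by which the genes were picked, so they do not show that the genes vary together within a genotype. They describe 12 libraries whose depth differs between the diets. Ahcy, which did not pass between knockouts and controls, had -0.18 with Gnmt and -0.01 with Cth. Outside the 10, the genes with the pattern most like Gnmt among 5203 genes at 20 CPM or more were Apon, Cyp4f14 and Sppl2a, with correlations of 0.988, 0.988 and 0.982. Those most like Mat1a were Psen2, Gm4952 and Mthfd1, with 0.991, 0.976 and 0.975.

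Around the cycle, 6 neighbouring lists held 71 genes listed in the files, of which 68 were tested, and the lists were chosen with earlier results of these libraries known. On SD, 13 of the 68 fell and none rose, against 2.94% and 1.44% of all genes tested. On HFD, 6 fell and 2 rose, against 1.66% and 1.04%. The HFD count of falls was 12 without HFD control 1, 1 without HFD knockout 1, 2 without HFD knockout 2, 11 by DESeq2 and 1 with only the HFD groups in the fit. The median log2 fold change of the 68 was -0.09 on SD and -0.04 on HFD, close to the 0 and -0.0074 over all genes tested.

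Among other methyltransferases that use SAM, 3 of 10 fell on SD and 1 fell and 1 rose on HFD. Pemt, which methylates phosphatidylethanolamine to phosphatidylcholine, had 45.3, 42.0 and 44.9 CPM in SD knockouts, against 84.4, 100.1 and 95.8 CPM in SD controls. The groups lay far apart, with a log2 fold change of -1.08 (SE 0.11, edgeR adjusted p = 7.25e-05), and on HFD it was -0.54 (edgeR adjusted p = 0.0126). Gamt, which makes creatine, was at -1.06 on SD (edgeR adjusted p = 0.0011) and -0.47 on HFD (0.113, and 0.0330 without HFD control 1). Tpmt, which methylates thiopurines, rose on HFD at 0.93 (edgeR adjusted p = 0.0255), with 136 and 303 CPM in knockouts, against 135, 113, 109 and 103 CPM in controls. The Tpmt value rested on HFD knockout 2, and without it was 0.25 (edgeR adjusted p = 0.541). Its call was also lost without HFD control 2, 3 or 4 (edgeR adjusted p of 0.0701, 0.0631 and 0.0807), and that of Pemt on HFD without HFD knockout 1 (0.111) or 2 (0.0894). The third gene that fell on SD was Inmt, which methylates indoles, and its call was lost with library 2 or 3 of the SD knockouts, or 2 or 3 of the SD controls, left out (edgeR adjusted p of 0.0539 to 0.0917). On HFD the Inmt value had the opposite sign, at 0.70 (edgeR adjusted p = 0.127). It did not pass there in the main fit, but passed as higher with no filter (0.0175).

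Of the genes that supply choline and betaine or use choline to make phosphatidylcholine, 4 of 11 fell on SD and 2 of 11 on HFD. Slc44a1, a choline transporter, had 36.3, 31.2 and 23.7 CPM in SD knockouts, against 57.8, 63.9 and 64.4 CPM in SD controls, at -1.03 (SE 0.14, edgeR adjusted p = 0.000645). On HFD it was at -0.37 (edgeR adjusted p = 0.201), or at -1.01 with thinned libraries (0.0181). Pcyt1a, which makes CDP-choline, was at -0.62 on SD (edgeR adjusted p = 0.00352) and -0.55 on HFD (0.0126). Slc44a3, of the same family as Slc44a1, fell on SD at -1.38 (edgeR adjusted p = 0.0144), a call lost with thinned libraries (0.0782) and without SD control 3 or SD knockout 1 or 2 (0.0527 to 0.0650). On HFD the Pcyt1a call was lost without HFD knockout 1 (edgeR adjusted p = 0.0960) or 2 (0.0945).

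Of the folate cycle genes, 3 of 16 fell on SD, and on HFD 1 fell and 1, Mthfd1l, rose at 1.25 (edgeR adjusted p = 0.0139). The Mthfd1l call was lost without HFD knockout 1 (edgeR adjusted p = 0.208) and with thinned libraries, where the value was 0.77 (0.528). Mthfd1, which interconverts folate one-carbon units in the cytosol, was at -0.88 on SD (edgeR adjusted p = 0.0011) and -0.46 on HFD (0.0746). Aldh1l1, which oxidizes formyl-folate, was at -0.66 on SD (edgeR adjusted p = 0.00228) and -0.38 on HFD (0.0936). Shmt1, which moves one-carbon units between serine and glycine, was at -0.65 on SD (edgeR adjusted p = 0.0471) and -0.80 on HFD (0.0127). Its SD call was lost with any SD library left out (edgeR adjusted p up to 0.180), and its HFD call without HFD knockout 1 (0.138) or 2 (0.0842). Without HFD control 1, Mthfd1 and Aldh1l1 passed on HFD (edgeR adjusted p of 0.0280 and 0.0484). Methionine synthase itself, Mtr, was at 0.33 on SD (edgeR adjusted p = 0.694) and 0.03 on HFD (0.976), chosen for mention after its values were seen.

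Among glycine, sarcosine and electron transfer partners, 1 of 10 fell on each diet. This was Pipox, the peroxisomal oxidase of pipecolate and sarcosine, with 194, 192 and 173 CPM in SD knockouts, against 359.7, 340.4 and 356 CPM in SD controls. On HFD the level was 194 and 207 CPM in knockouts, against 253, 379, 313.5 and 368 CPM in controls. The groups did not overlap on either diet, at a log2 fold change of -0.92 (SE 0.13, edgeR adjusted p = 0.0011) on SD and -0.71 (SE 0.14, edgeR adjusted p = 0.0133) on HFD, where the call was lost without HFD knockout 1 (0.161) or 2 (0.0679). Etfdh, which passes the electrons of Dmgdh and Sardh to the respiratory chain, was at -0.41 on SD (edgeR adjusted p = 0.0956) and -0.51 on HFD (0.0658), and passed when averaged over the diets at -0.46 (0.00649). Agxt, which uses glyoxylate to make glycine, was at -0.59 in that average (edgeR adjusted p = 0.0248). The Agxt call was lost without SD control 2 or 3, SD knockout 1 or 2, or HFD knockout 1 (edgeR adjusted p of 0.0554 to 0.126).

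Of the genes of cysteine, taurine, sulfide and glutathione, 2 of 11 fell on SD and 1 on HFD. Got1, the cytosolic aspartate transaminase, had 145, 119 and 121 CPM in SD knockouts, against 312, 266 and 302 CPM in SD controls. Its HFD level was 154 and 177 CPM in knockouts, against 256, 523, 409.9 and 398 CPM in controls. Its ranges did not overlap on either diet, at -1.19 (SE 0.19, edgeR adjusted p = 0.00233) on SD and -1.26 (SE 0.21, edgeR adjusted p = 0.00364) on HFD, where the call was lost without HFD knockout 1 (0.0828). Tst, a sulfurtransferase of the mitochondrion, was at -0.55 on SD (edgeR adjusted p = 0.0195), a call that ended (0.0581 to 0.105) when 1 of 4 libraries was left out: control 2 or 3, or knockout 1 or 3. In the list of SAM synthesis, S-adenosylhomocysteine removal and methionine salvage, none of 10 passed on either diet, and Adi1, of the salvage pathway, passed when averaged over the diets at -0.30 (edgeR adjusted p = 0.0163), a call lost without HFD knockout 1 (0.0807) and with the replicate block (0.0570). That list holds Mat2a, the form of methionine adenosyltransferase that prevails outside the adult liver, which was at -0.03 on SD (edgeR adjusted p = 0.939) and 0.33 on HFD (0.124), also chosen after its values were seen.

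**Figure D4:**
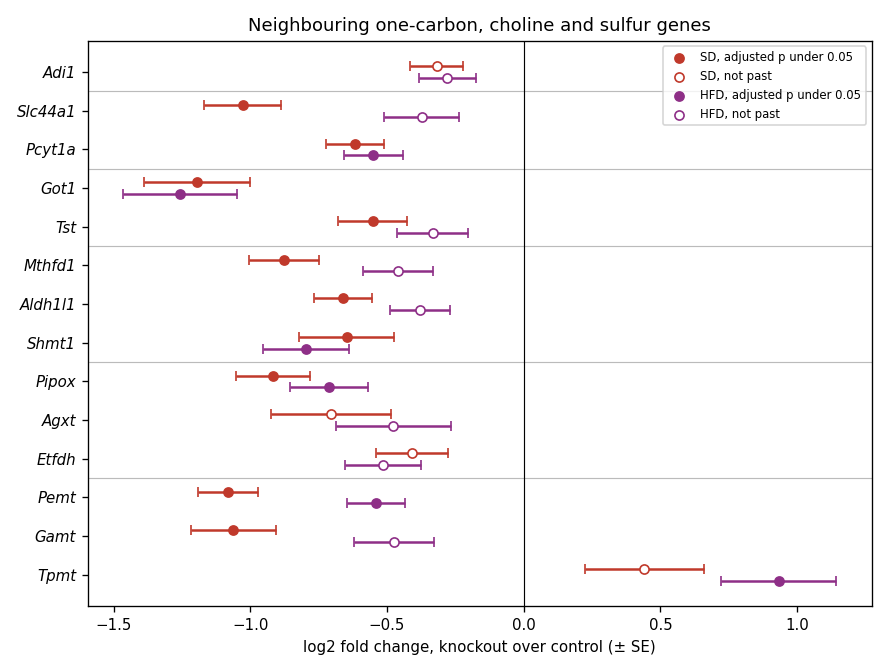
Log2 fold change of knockouts over controls on SD and on HFD for genes named from the 6 neighbouring lists, with bars of 1 SE; filled points passed the edgeR test at an adjusted p under 0.05. All but Tpmt lie below 0 on both diets; they were named for small p-values in these comparisons, so their side is no result.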

How the data were processed

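Livers had been flash frozen and extracted with Trizol, and total RNA was put through the Nugen Ovation RNA-Seq System V2, per the labels' protocols. The tools named in the submitters' processing notes are TopHat2 2.1.0, DESeq2 1.14.1 and HTSeq, and the build is mm9. What the authors deposited are raw counts, 1 whole number for each gene symbol in each library. The members and lists described here were chosen with earlier results of these data known.

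Counts of 12015 genes that passed filterByExpr (minimum count 10) were fitted in R 4.3.3 with the packages edgeR 4.0.16 and limma 3.58.1, TMM normalization, a mean for each of 4 groups and a spread shared by the 12 libraries. The quasi-likelihood tests were two-sided, with Benjamini-Hochberg adjustment across every gene tested and a threshold of 0.05. SE values were derived from the test statistic. Correlations use log2(CPM + 1) less the mean of the diet.

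Of each neighbouring list, up to 3 genes with the smallest p among those that passed in a knockout comparison are named, and the 3 genes most like Gnmt and Mat1a in pattern. Inmt, Slc44a3, Mthfd1l, Mtr and Mat2a were chosen for mention after their values were seen. A gene picked by this rule is counted in its list but not reported here. Promoters are from RefSeq GRCm38.p6, and transcripts from GENCODE. Copies among pseudogenes were sought for 91.9% of tested genes.

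As alternatives, DESeq2 1.42.0, RLE normalization, no filter, a fit of only the groups compared, thinning to the smallest library, the replicate number as a block, and each library left out in turn were tried. The mean of Bhmt without each SD control was added after seeing the data. The procedure was also run on simulated counts, with the same spread for every gene and no outlying library, unlike Bhmt in these data. Its outcome there is not used here.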

Additional observations from a re-analysis of the deposited data

How the results depend on the processing

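The calls of Cth, Gnmt, Mat1a and Sardh on SD were kept under every alternative run and with every library left out, and so was that of Gnmt on HFD. Over all comparisons and alternatives, called values of the 10 genes kept their direction and call in 260 refits and lost the call in 23, while uncalled values kept both in 506, passed in 11 and changed sign in 20. The number of the 10 genes lower on HFD was 1 to 4 with a library left out. For HFD against SD in knockouts, the number lower was 0 with thinned libraries and 0 to 1 with a library left out, and the number higher was 8 with no filter and 4 to 7 with a library left out. In controls the number higher was 4 to 6 with a library left out. The cause was not tested.

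No called value of the 10 genes changed sign under the alternatives run. On SD, log2 fold changes with a library left out ran from -0.11 to 0.13 for Ahcy, -0.98 to 0.19 for Bhmt, -0.11 to 0.10 for Bhmt2 and -0.20 to 0.025 for Dmgdh. Averaged over the diets, Ahcy ran from -0.00096 to 0.12. Nr5a2 ran from -0.030 to 0.26 on HFD. The differences of the knockout effect between the diets ran from -0.037 to 0.21 for Ahcy, -0.54 to 0.63 for Bhmt, -0.017 to 0.28 for Cbs and -0.20 to 0.032 for Dmgdh. For HFD over SD, Cth in controls ran from -0.20 to 0.10, and Gnmt in knockouts from -0.13 to 0.041, or 0.17 with thinned libraries.

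Replicate numbers are shared between groups. For libraries with the same number, the correlation of their deviations from the group mean was -0.04 to 0.12 over 15 pairs. It was -0.135 to 0.135 over 38 pairs with different numbers. The pairs share libraries and group means, so these values cannot decide whether libraries were paired. With the replicate block, Cth on HFD was at -0.89 (edgeR adjusted p = 0.0684) and Chdh for HFD over SD in knockouts at 0.33 (0.0615). On HFD the block also ended the calls of Pemt (0.0642), Pcyt1a (0.0591) and Tpmt (0.129), averaged over the diets that of Adi1 (0.0570), and on SD Agxt passed with it (0.0245). With the block, the difference of the knockout effect between the diets was -0.0069 for Bhmt. With only the HFD groups in the fit, the HFD calls of Pemt (0.0551), Pcyt1a (0.0655), Shmt1 (0.0604), Pipox (0.0812) and Tpmt (0.135) were lost, and with thinned libraries those of Pemt (0.0597), Pcyt1a (0.190) and Shmt1 (0.0548). The 2 HFD knockouts limit the HFD comparisons, and with 1 left out the remaining library is assumed to vary like the other groups.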
